A study of Caenorhabditis elegans with 2 samples.

Results

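MicroRNA genes were taken as all genes of the C. elegans annotation (assembly WBcel235, the ce11 build) whose symbol starts with mir-, together with let-7, lin-4 and lsy-6. That gave 258 genes out of 46890 nuclear genes, 150 of them intergenic, 96 in an intron and 12 overlapping an exon of a host gene. Occupancy around them was read from ChIP-seq peak lists for CEH-34, a homeodomain protein of the sine oculis family known for its role in the neurons of the pharynx. The animals were hermaphrodites of strain OP524, unc-119(tm4063) III; wgIs524, in which an integrated transgene makes CEH-34 with GFP and FLAG at its C-terminus. Late embryos were collected 3.5 hours after synchronisation by egg bleaching, chromatin was sonicated, and the description names an antibody against GFP for the immunoprecipitation, although the antibody tag of the labels reads ceh-34. There was 1 group of 2 biological replicates from separate biosamples, and both carried the same transgene and the unc-119 allele. Whole organisms were used, so the lists do not say in which cells a site was occupied, and transgenic protein may add to the native factor. The control listed for the experiment was not analysed here, and there was no second group to compare.

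MicroRNAs are short RNAs that direct Argonaute proteins to messenger RNAs. A primary transcript is cut by the nuclear Microprocessor (drsh-1 and pash-1) into a hairpin, Dicer (dcr-1) cuts the hairpin into the mature strand, and pairing of the seed, bases 2 to 8 of that strand, chooses the targets. MicroRNAs with the same seed form a family and often act redundantly. In C. elegans the mir-35 and mir-51 families are known for essential roles in embryogenesis, lin-4 and the let-7 family time larval development, mir-1 acts in muscle, mir-124 in sensory neurons and lsy-6 in a taste neuron.

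The mature sequences of the families on which the results turn are shown 5′ to 3′ with the seed in capitals, since the seed defines the family. They are RNA as annotated by RefSeq on WBcel235. The mir-51 family shares the seed ACCCGUA and the mir-35 family the seed CACCGGG.
mir-51: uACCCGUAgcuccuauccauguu
mir-52: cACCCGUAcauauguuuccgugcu
mir-53: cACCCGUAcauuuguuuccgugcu
mir-54: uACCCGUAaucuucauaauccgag
mir-55: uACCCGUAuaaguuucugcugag
mir-56: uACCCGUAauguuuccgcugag
mir-35: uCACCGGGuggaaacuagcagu
mir-36: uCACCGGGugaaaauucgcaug
mir-37: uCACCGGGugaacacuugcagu
mir-38: uCACCGGGagaaaaacuggagu
mir-39: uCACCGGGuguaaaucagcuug
mir-40: uCACCGGGuguacaucagcuaa
mir-41: uCACCGGGugaaaaaucaccua
mir-42: uCACCGGGuuaacaucuacaga
The pair mir-58.1 and mir-80 shares bases 2 to 7, the neuronal mir-124 stands alone, and lin-4 and let-7 are the founding heterochronic microRNAs.
mir-58.1: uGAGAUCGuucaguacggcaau
mir-80: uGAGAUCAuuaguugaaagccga
mir-124: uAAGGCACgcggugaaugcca
lin-4: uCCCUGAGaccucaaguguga
let-7: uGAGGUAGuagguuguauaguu

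The genomic sequence within 50 bp of the summit, 101 bp in all, is shown for the strongest sites upstream of these families and for mir-90. Letters are the plus strand of WBcel235 (RefSeq), 5′ to 3′, and capitals mark GAGAGA or its reverse complement TCTCTC, discussed with the motifs.
mir-54 to mir-56, chrX:13145418-13145518: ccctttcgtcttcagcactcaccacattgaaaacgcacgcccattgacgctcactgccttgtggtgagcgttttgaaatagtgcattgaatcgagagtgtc
mir-51, chrIV:11026130-11026230: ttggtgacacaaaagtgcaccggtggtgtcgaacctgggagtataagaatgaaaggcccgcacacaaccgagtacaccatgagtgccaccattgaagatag
mir-52, chrIV:14033838-14033938: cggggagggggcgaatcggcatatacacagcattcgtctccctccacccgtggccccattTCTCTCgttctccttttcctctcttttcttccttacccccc
mir-53, chrIV:11027802-11027902: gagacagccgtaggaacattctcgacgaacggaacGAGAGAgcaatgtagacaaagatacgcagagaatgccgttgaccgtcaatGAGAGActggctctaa
mir-35 to mir-40, chrII:11537158-11537258: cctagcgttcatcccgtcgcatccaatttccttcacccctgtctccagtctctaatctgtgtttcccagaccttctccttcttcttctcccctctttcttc
mir-58.1, chrIV:3232971-3233071: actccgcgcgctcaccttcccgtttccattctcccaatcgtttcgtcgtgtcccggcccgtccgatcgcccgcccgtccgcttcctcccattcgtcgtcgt
mir-80, chrIII:8865470-8865570: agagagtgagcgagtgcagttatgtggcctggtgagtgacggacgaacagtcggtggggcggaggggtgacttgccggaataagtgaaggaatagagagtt
mir-90, chrIII:8874398-8874498: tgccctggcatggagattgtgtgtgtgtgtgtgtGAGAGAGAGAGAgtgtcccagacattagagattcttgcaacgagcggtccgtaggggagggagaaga

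Of the 258 microRNA genes, 48 had a summit of the thresholded list within 1000 bp, or 18.6% (95% Wilson interval 14.3% to 23.8%, counting error only). The thresholded list was derived by irreproducible discovery rate, which scores how well a ranking repeats. It held 2490 nuclear peaks, not all of which had a candidate within 100 bp in each replicate. The same measure gave 11.9% of protein-coding genes and 9.14% of all nuclear genes. The windows differ in size, since a microRNA gene had a median length of 96 bp, a coding gene 2027 bp and a nuclear gene 196 bp. Around 5′ ends alone, 47 microRNA genes (18.2%) were reached, against 8.65% of coding genes. As a share of sequence, 4.61% of nuclear bases lay within 1000 bp of a thresholded summit. No list was tested, because the members share summits and there is 1 group.

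In the longer candidate lists, which include background, the shares of microRNA genes were closer to those of coding genes. A pooled candidate lay within 1000 bp of 157 microRNA genes, or 60.9% (54.8% to 66.6%), against 61.6% of coding genes, 49.8% of all nuclear genes and 41.1% of nuclear bases. Replicate 1 placed a candidate at 144 microRNA genes (55.8%), against 56.6% of coding and 43.7% of all genes. Replicate 2 placed one at 137 (53.1%), against 58% of coding and 44.7% of all genes. Both replicates had one at 113 microRNA genes (43.8%), against 44.6% of coding and 32% of all genes. All 48 genes with a thresholded summit had candidates in both replicates within 1000 bp.

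**Figure D1:**
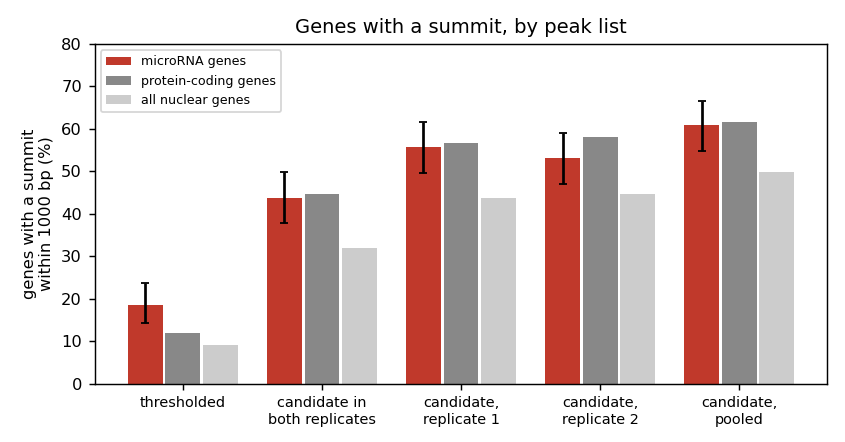
Share of genes (%) with a summit within 1000 bp in each peak list, for microRNA genes (with 95% Wilson intervals), protein-coding genes and all nuclear genes. In the thresholded list microRNA genes reached 18.6% and coding genes 11.9%, while in the pooled candidate list they reached 60.9% and 61.6%.

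The 48 genes were served by 39 distinct summits at 33 loci, since 7 loci held several microRNA genes, 22 in all. Joining genes that share a pooled candidate gave 236 clusters, of which 33 held a thresholded summit, or 14.0% (10.1% to 19.0%). Counted this way the share was lower than over genes, because the mir-35, mir-54 and mir-229 clusters each count once. The 11.9% of coding genes falls inside the interval for clusters, and the 9.14% of all nuclear genes falls below it. Those genes were counted singly and not joined into clusters.

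Intronic microRNA genes had a thresholded summit more often by count than intergenic ones. The intronic genes gave 28 of 96, or 29.2% (21.0% to 38.9%), the intergenic genes 18 of 150, or 12% (7.73% to 18.2%), and the exonic genes 2 of 12. By clusters the intronic share was 18 of 83, or 21.7% (14.2% to 31.7%), and the intergenic share 13 of 141, or 9.22% (5.47% to 15.1%), and these intervals overlap. Among intronic genes, those on the strand opposite to their host gave 13 of 30 and those on the host's strand 15 of 66. By clusters that became 6 of 21 on the opposite strand and 12 of 62 on the same strand, since 9 of the 13 opposite-strand genes belong to the mir-35 and mir-54 clusters. These differences were not tested. Within 500 bp the intronic count was 18, and 5 of the 10 genes that dropped out were mir-36 to mir-40, which share the mir-35 summit.

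The mir-51 family had a thresholded summit at every member, 6 of 6, at 4 loci. Signal is the value that the authors' peak caller gave a peak, on a scale set per list. Here it orders and describes the peaks of 1 list, and values of the 2 replicates stand side by side without a measure of their difference. The strongest summit at any microRNA gene lay in the mir-54, mir-55 and mir-56 cluster at chrX:13144691-13145094, on the strand opposite to the host F09A5.3 and in its intron. It stood 374 bp upstream of mir-54 with a signal of 461, rank 23 of 2490. Its candidates had signals of 217 in replicate 1 and 247 in replicate 2, rank 25 and rank 23 of their lists, and lay 4 bp and 17 bp from it. The cluster had 2 further summits downstream of mir-56, at 326 bp with a signal of 249 and at 125 bp with a signal of 112.

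The intergenic mir-51 gene, at chrIV:11026013-11026112, had a summit 68 bp upstream with a signal of 425, rank 32, and candidates of 203 in replicate 1 and 229 in replicate 2. No coding 5′ end lay nearer to that summit than hrg-5, 3005 bp away. Its neighbour mir-53, at chrIV:11027593-11027691, had a weaker summit 161 bp upstream, with a signal of 117 and candidates of 45.3 in replicate 1 and 70.4 in replicate 2. The mir-52 gene, at chrIV:14034008-14034107, had a summit 120 bp upstream with a signal of 308, rank 81. Its candidates were 173 in replicate 1, 11 bp away, and 142 in replicate 2, 95 bp away. A second mir-52 summit, 4 bp downstream of the gene, had a signal of 187. The candidates matched to it were 92.2 in replicate 1 (rank 388), 10 bp away, and 26.0 in replicate 2 (rank 6299), 75 bp away. The replicate 2 candidate of 142 stood 25 bp upstream of the gene, between the mir-52 summits, and was matched to the upstream summit only. The low replicate 2 value at the second summit therefore depends on the matching distance and is not read as a disagreement between the replicates. The nearest coding 5′ end to either mir-52 summit was 9669 bp or more away, that of Y37A1B.7.

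The mir-35 family had a thresholded summit at 7 of 8 members, at 2 loci. A single summit 400 bp upstream of mir-35 lay within 1000 bp of mir-35 to mir-40, which follow one another at chrII:11537608-11538275 in an intron of Y62F5A.9 and on the opposite strand. It had a signal of 170, rank 540, and candidates of 73.0 in replicate 1 and 96.8 in replicate 2, which were 5 bp and 11 bp away. The distance from it was 976 bp for mir-40, just inside the limit, and 1100 bp for mir-41, just outside, so the missing member belongs to the same cluster. The other genes next to the limit were mir-8212 (969 bp) and mir-8211 (974 bp) inside, and mir-353 (1052 bp) and mir-4923.2 (1189 bp) outside. The eighth member, mir-42, heads an intergenic cluster with mir-43 and mir-44 at chrII:11889811-11890118. Its summit, 248 bp upstream, was near the foot of the list, with a signal of 80.4 and candidates of 41.9 in replicate 1 and 36.4 in replicate 2. Among the 2490 strongest peaks of replicate 2 alone, mir-42, mir-43 and mir-44 had none within 1000 bp, which leaves the family 1 locus.

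The mir-58 family, abundant microRNAs that share bases 2 to 7 (GAGAUC), had a thresholded summit at 2 of 6 members. For mir-58.1, in an intron of phkb-1, it lay 233 bp upstream with a signal of 155, and with candidates of 80.4 in replicate 1 and 77.3 in replicate 2. For the intergenic mir-80 it lay 153 bp upstream with a signal of 153, and with candidates of 64.0 in replicate 1 and 91.3 in replicate 2. The other members (mir-81, mir-82, mir-58.2 and mir-2209.1) had pooled candidates of 20.4 to 34.5 only.

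The heterochronic families had none in the thresholded list. Of 7 genes with the let-7 bases 2 to 7 (GAGGUA), 4 had a pooled candidate and 2 had one in both replicates. The let-7 gene had a pooled candidate inside its span with a signal of 55.4, and 23.1 in replicate 1 and 32.4 in replicate 2. Its relative mir-241 had a pooled candidate of 62.6 with 30.0 in replicate 1 and 34.9 in replicate 2. For lin-4 the pooled candidate was 301 bp away with a signal of 69.6, and 43.3 in replicate 1 and 30.4 in replicate 2. That is below the lowest thresholded signal at a microRNA gene, 76.7, and lin-4 had a summit among the 2490 strongest peaks of replicate 1 alone. Its relative mir-237 had a pooled candidate of 32.2, with one of 28.4 in replicate 1 and none in replicate 2.

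**Figure D2:**
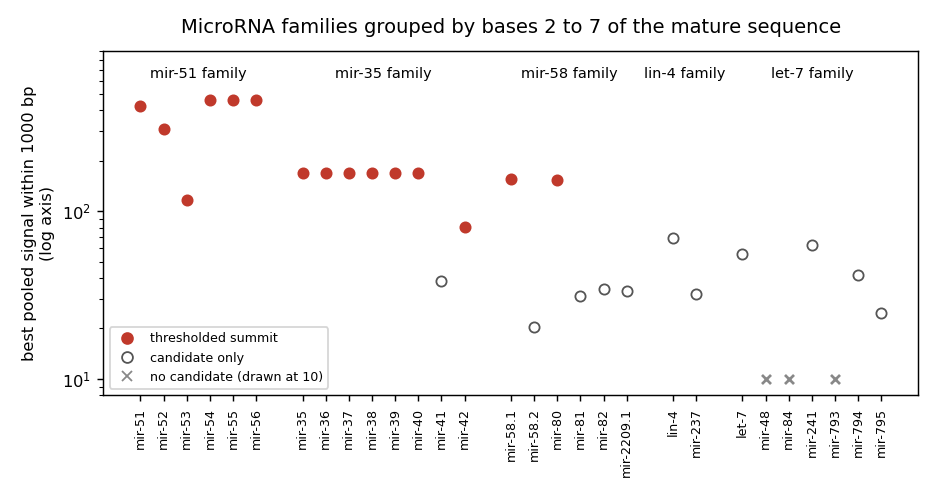
Best pooled signal within 1000 bp (log axis, the authors' scale) for each member of the mir-51, mir-35, mir-58, lin-4 and let-7 families; filled points have a thresholded summit, open points a candidate only, and crosses no candidate. All 6 mir-51 members and 7 of 8 mir-35 members are filled, and none of the let-7 members is; members of 1 cluster share a summit and so a value.

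Other seed groups were reached in part. The seed AUGACAC, shared by mir-229, mir-64, mir-65, mir-66 and mir-63, had thresholded summits at 4 of 5 members, all in 1 cluster in an intron of gcn-1. That cluster had a summit 291 bp upstream of mir-229, with a signal of 132 and candidates of 76.7 in replicate 1 and 59.3 in replicate 2. A weaker summit 90 bp upstream had a signal of 81.9 and a candidate in replicate 1 only, of 37.5. The seed GAUAUGU had summits at 2 of 3 members, mir-62 and mir-90. The mir-90 summit, in an intron of K01F9.2 and 364 bp upstream, had a signal of 175. Its candidates within 100 bp were 101 in replicate 1 (rank 305) and 34.5 in replicate 2 (rank 3591), the latter 98 bp away. Replicate 2 also had a stronger candidate of 77.2 beyond that distance, 261 bp from the gene. The mir-62 summit, in an intron of ugt-50 and 199 bp from the 5′ end of that host, had a signal of 87.6, with 27.8 in replicate 1 and 61.8 in replicate 2. Among the 2490 strongest peaks of replicate 1 alone, mir-62 had none within 1000 bp.

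Among microRNAs known for one tissue, mir-1 had 2 summits. They stood 578 bp upstream with a signal of 167 and 781 bp upstream with a signal of 122. The first had a candidate of 106 in replicate 2 and none within 100 bp in replicate 1. The second had candidates of 75.7 in replicate 1 and 52.5 in replicate 2. The replicate 1 candidate stood 730 bp upstream, between the mir-1 summits, and was matched to the second only. Its absence at the first therefore depends on the matching distance and is not read as a disagreement between the replicates. The neuronal mir-124, in an intron of trpa-1, had a summit 284 bp upstream with a signal of 112, and 84.0 in replicate 1 and 30.4 in replicate 2. Among the 2490 strongest peaks of replicate 2 alone, mir-124 had none within 1000 bp. The neuronal lsy-6 had no candidate within 1000 bp in any list, and its nearest pooled summit was 2339 bp away. The glial mir-228 and the intestinal mir-60 had pooled candidates of 29.7 and 30.0. Of these 5 tissue genes, 2 had a thresholded summit, against 18.6% of all microRNA genes and 11.9% of coding genes. With 5 genes, nothing is read from that difference.

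The remaining loci held single microRNA genes or pairs. Strongest among them were mir-354 with a signal of 206, mir-2 with 194 and mir-1824 with 176. The mir-354 summit lay 154 bp from the 5′ end of ekl-4 and 855 bp from mir-354 itself, which overlaps an exon of rps-20. The mir-1824 summit lay 75 bp from the 5′ end of its host Y87G2A.18, and the mir-5549 summit, with a signal of 155, lay 170 bp from that of rfc-4. The mir-2 summit lay 323 bp upstream of its gene in an intron of ppfr-1, with 89.7 in replicate 1 and 111 in replicate 2, and the nearest coding 5′ end, that of dyf-5, was 14113 bp away. The genes mir-5550, mir-1831, mir-8212, mir-8192, mir-5595, mir-4923.1 with mir-4921, and mir-8209 followed with signals of 116 to 131. The mir-5550 summits lay 258 bp and 52 bp from the 5′ end of T07A9.12. The mir-5595 summit lay 282 bp from that of nurf-1, and the mir-8192 summit 452 bp from that of flcn-1. From mir-87, mir-67 and mir-8190 through mir-8211, mir-251, mir-73 with mir-74, mir-8186.1 with mir-8186.2, mir-4929 and mir-2218.2 signals lay between 76.7 and 102. Of these, mir-251, mir-8190, mir-8186.1 and mir-8186.2 had none among the 2490 strongest peaks of replicate 1 alone, and mir-73, mir-74, mir-4929 and mir-2218.2 had none among those of replicate 2 alone. The mir-8211 summit, 974 bp from its gene, had matched candidates of 17.2 in replicate 1 (rank 13130) and 52.3 in replicate 2. Replicate 1 also had a stronger candidate of 47.2 inside the mir-8211 gene. The mir-67 summit lay in an exon of EGAP1.5, 6 bp from its 5′ end. The mir-4929 summit lay 100 bp from the 5′ end of E01G4.3, and the mir-8186.1 summit 538 bp from that of gmeb-1. The mir-1831 gene is itself annotated as an snRNA, and without it 47 of 257 genes had a thresholded summit (18.3%). Its summit lay within 200 bp of the annotated snRNA gene sup-39 and that of mir-4921 within 200 bp of a tRNA gene. Such structural RNA genes lay that near to 2 of the 39 microRNA summits (5.13%) and to 259 of all 2490 summits (10.4%).

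**Figure D3:**
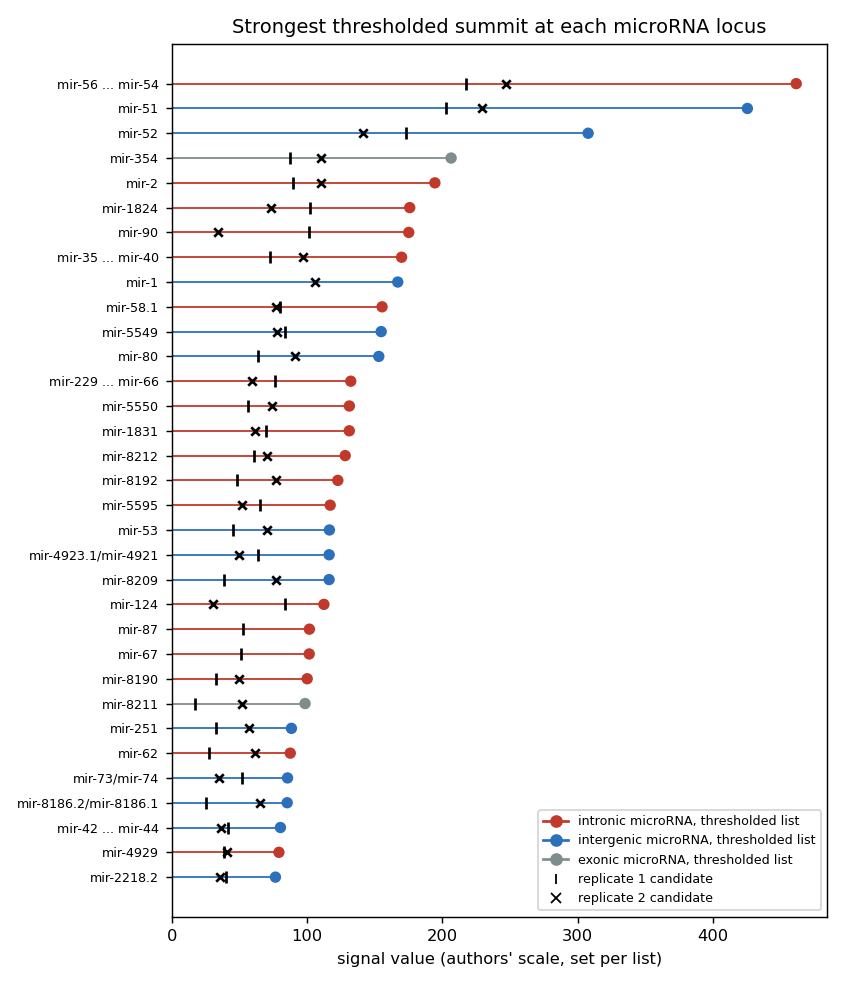
Strongest thresholded summit (filled point, signal on the authors' scale) at each of the 33 microRNA loci, with the replicate 1 candidate (bar) and replicate 2 candidate (cross) within 100 bp where there is one. The mir-54 cluster (461), mir-51 (425) and mir-52 (308) stand above the other loci, whose signals run from 76.7 to 206.

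Over the 39 summits the median signal was 122 (76.7 to 461), against 114 (76.5 to 1522) over all 2490. Candidates within 100 bp in both replicates were present at 34 of 39 microRNA summits, or 87.2% (73.3% to 94.4%), against 2379 of 2490, or 95.5%, of all. Of the 5 without, the mir-1 summit at 578 bp lacked one in replicate 1, and the weaker mir-5550 summit lacked one in both replicates. The mir-87 and mir-67 summits and the weaker mir-229 summit lacked one in replicate 2. Each of these genes had a candidate in both replicates within 1000 bp, in replicate 2 of 56.2 at mir-87 and 56.0 at mir-67. Within replicate 1, the signal at the 34 had a median of 64.5 (17.2 to 217), against 55.7 over the 2379. Within replicate 2, it had a median of 63.4 (26.0 to 247), against 62.1 over the 2379. The rank correlation between the replicates was 0.41 (Spearman, n = 34 summits), against 0.65 over 2379 summits. The 34 include the second mir-52 summit (92.2 and 26.0) and mir-90 (101 and 34.5), where a stronger replicate 2 candidate lay outside 100 bp. Both the correlation and the share with candidates thus depend on the matching distance, and how far it also affects the 2379 was not examined. The correlation is a description across peaks of the same 2 libraries, and peaks are not independent samples.

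The summits lay mostly upstream of the microRNA genes. Relative to the nearest microRNA gene, 28 of 39 were upstream (71.8%, 56.2% to 83.5%), 2 were inside and 9 were downstream. The upstream ones had a median distance of 280.5 bp to the annotated 5′ end (9 to 974 bp), which is the end of the annotated gene and not a mapped transcription start. Of the summits within 1000 bp of a 5′ end, 29 of 38 were upstream of the nearest microRNA 5′ end (76.3%), and over all thresholded summits 1177 of 1413 were upstream of the nearest coding 5′ end (83.3%), leaving out a summit that fell exactly on one. Pooled candidates at microRNA genes without a thresholded summit showed no such side, with 80 upstream, 11 inside and 79 downstream of 170. Summits within 1000 bp of a coding 5′ end numbered 12 of 39 at microRNA genes (30.8%, 18.6% to 46.4%), against 1414 of 2490 in all (56.8%). The 39 were chosen for lying near a microRNA gene, so nothing is read from that difference. Without those 12 summits, 36 microRNA genes kept a thresholded summit.

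**Figure D4:**
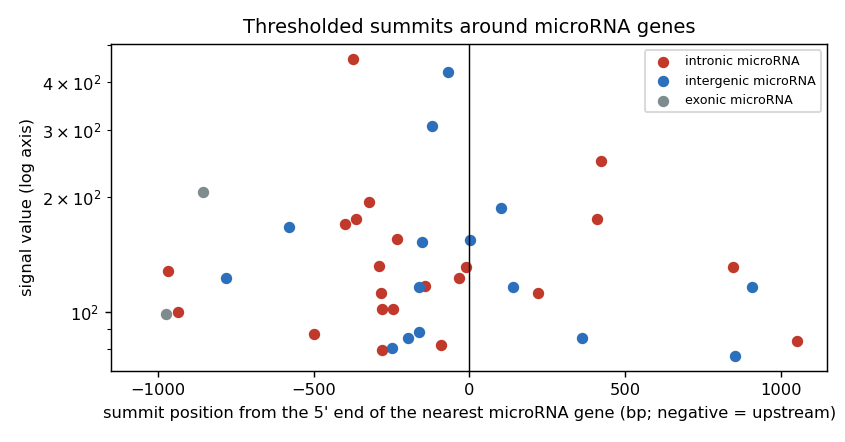
Position of each of the 39 thresholded summits from the 5′ end of its nearest microRNA gene (bp, negative upstream) against its signal (log axis), coloured by the location of that gene. Most points lie left of 0, with a median upstream distance of 280.5 bp.

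**Figure D5:**
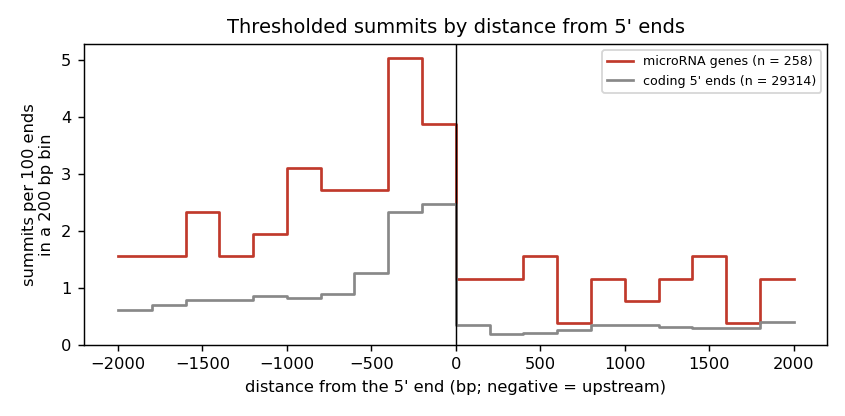
Thresholded summits per 100 ends in bins of 200 bp around the 5′ ends of 258 microRNA genes and of 29314 coding 5′ ends; a summit counts once for each end it is near. The microRNA curve is highest from 400 to 200 bp upstream (5.04 per 100 ends), where coding ends have 2.34, and the coding curve is highest in the 200 bp next to the end (2.48).

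Sequence under the summits was searched on both strands for 4 short motifs. The sine oculis core TGATAC was within 50 bp of 0 of 39 microRNA summits, which allows a share of up to 7.69%, and of 80 of all 2490 summits (3.21%). The related TCAGGTT was within 50 bp of 0 of 39 and of 38 of 2490 (1.53%). At these shares a difference was not detectable with 39 summits, and no match says only that these letters are not in the window. The E-box CAGCTG was found at 2 of 39 (5.13%), those of mir-67 and mir-8190, and at 98 of 2490 (3.94%). The repeat GAGAGA was found at 17 of 39 (43.6%, 29.3% to 59.0%), among them mir-52, mir-53, mir-90, mir-124 and the stronger mir-1 summit, and at 716 of 2490 (28.8%). Base composition was similar, with a median of 50.5% GC at microRNA summits and 49.5% at all summits. A match describes the letters and is not shown to be a binding site.

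Of the 210 microRNA genes outside the thresholded list, 109 had a pooled candidate, with a median best signal of 32.2 (18.2 to 74.1). The strongest were mir-86 (74.1), mir-392 (71.3), mir-47 (71.1), lin-4, mir-241, mir-8201 (61.7), mir-4936 (61.6), mir-271 (60.5), mir-1822 (56.5) and mir-72 (55.9). All 10 had a candidate in both replicates. Among the 2490 strongest peaks of 1 replicate alone, mir-86 had a summit in either, mir-353 and mir-392 in replicate 2, and mir-50 and lin-4 in replicate 1.

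The coding genes that make microRNAs and carry out their effects, and genes of the pathways that lin-4, let-7, lsy-6 and the mir-35 family regulate, were counted from a list of 31 symbols, of which 30 were matched. A thresholded summit lay within 1000 bp of 15 of the 30 genes (50%, 33.2% to 66.8%), against 11.9% of all coding genes. The list was chosen with results of these data known, and its genes differ in length, so the shares are set side by side only. Within 500 bp the count was 9, and within 1000 bp of a coding 5′ end it was 12. Among the 15, the nearest summit lay from 10 bp (pab-1) to 1764 bp (daf-12) from a 5′ end of the gene. It was 14 bp away at lin-28 and 104 bp at lin-14. At alg-5, ain-1 and nhl-2 it was 816 bp, 825 bp and 830 bp away, and at lin-42 and lin-29 1066 bp and 1346 bp.

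In the biogenesis steps, neither Microprocessor gene had a thresholded summit, with best pooled signals of 44.8 for drsh-1 and 48.8 for pash-1, and dcr-1 had no candidate at all. The nuclear exporter xpo-1 had a thresholded summit of 76.7, at the foot of the list, whose lowest signal was 76.5. Among Argonautes, alg-5 had a summit with a signal of 490, with 224 in replicate 1 and 276 in replicate 2, and alg-1 had one of 123, with 56.8 and 72.8 in replicates 1 and 2. The other main microRNA Argonaute, alg-2, had only candidates, up to 69.9. Both GW182 proteins, which join Argonaute to the silencing machinery, had one, of 298 at ain-1 and 94.2 at ain-2. So did the translational repressor ifet-1 (342), the cofactor nhl-2 (287), the helicase cgh-1 (149) and the poly(A)-binding protein pab-1 (114).

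The RNA-binding protein lin-28, which blocks let-7 processing, had a summit 14 bp from a coding 5′ end with a signal of 186, and with 98.6 in replicate 1 and 93.4 in replicate 2. Of the 10 genes of the regulated pathways 5 had a summit, namely lin-42 (181), daf-12 (148), lin-14 (131), lin-29 (76.7) and lin-46 (76.5). The lin-29 and lin-46 values are at the foot of the list. The let-7 targets lin-41 and hbl-1, the let-7 family target let-60, the lsy-6 target cog-1 and the mir-35 family target egl-1 had candidates only, from 25.1 to 69.4.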

How the data were processed

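CEH-34-GFP ChIP-seq peak lists of 2 replicates from late embryos were used. The deposited lists hold a signal value per peak (the authors' own value, on a scale set per list) and the −log10 of a q-value, which was not used here. Per the file lists, candidates were called per replicate and on the pooled replicates, and a thresholded list was derived by irreproducible discovery rate. Which aligner and which caller were used is not given in the sources used here, and no read depth was analysed, so the error behind a signal value is unknown. The ce10 lists were not used. Nuclear peaks numbered 21705 in replicate 1, 23491 in replicate 2, 29396 in the pooled list and 2490 in the thresholded list.

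Summits were joined to genes with Python 3.11.15, pandas 2.3.3 and numpy 2.4.6. The join was checked on simulated summits. A gene was counted when a summit lay within 1000 bp of it. Symbols and the 455 mature sequences (257 of the 258 genes) came from RefSeq WBcel235, and hosts, exons and 5′ ends from Ensembl release 115. Exon overlap had priority over intron. Candidates within 100 bp were matched between lists. Shares have 95% Wilson intervals that cover counting error only, and a count of 0 allows a share of 3 counts over the total. No test was run.

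The members and lists were chosen with earlier results of these data known. The text names every microRNA gene with a thresholded summit, the 10 strongest others, 5 seed families, tissue microRNAs, genes next to the distance limit and pathway genes with a summit or a central role. The seed groups AUGACAC and GAUAUGU, mir-63, mir-50 and the pathway targets without a summit were named after their values were seen.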

Additional observations from a re-analysis of the deposited data

How the results depend on the processing

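The count of microRNA genes with a thresholded summit stayed within 1.5 times of 48 in every alternative run, from 32 (500 bp, or the upper 50% of the list by signal) to 67 (2000 bp). Counts that moved further were these. At 500 bp there were 18 intronic genes, 75 genes with candidates in both replicates and 9 pathway genes. At 2000 bp there were 61 distinct summits and 29 intergenic genes. With that upper 50% of the thresholded peaks there were 24 distinct summits and 9 intergenic genes. Counting a host only on the same strand gave 31 intergenic and 15 intronic genes. This moves opposite-strand genes into the intergenic class, so the classes change in size and the counts alone do not order the shares. Of the intronic genes above, those on the host's strand gave 15 of 66 (22.7%), against 29.2% of all intronic genes. Those on the opposite strand gave 13 of 30 (43.3%), so the intronic and intergenic shares above depend on the class in which these are put. The sine oculis core was within 100 bp of 1 summit, and the E-box within 25 bp of 1 and within 100 bp of 4. Without replicate 1, the 2490 strongest peaks of the other gave 43 genes, 40 of them among the 48, and without replicate 2 it gave 46, with 43 among the 48. Use of the precursor hairpin in place of the gene, chosen after seeing the data, left 48. No paired analysis was possible because there was 1 group. Limits are the unknown depth, 2 libraries, no control data used and clusters that share a summit.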

Other observations

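MicroRNA numbers were given in order of description, so low numbers mark those cloned first. This division was chosen after the values were seen, was not tested, and holds clusters that share a summit. Of 59 genes with a number under 100 (with let-7, lin-4 and lsy-6), 28 had a thresholded summit, or 47.5% (35.3% to 59.96%). Of 76 genes numbered from 100 to below 1000, 4 had one, or 5.26% (2.07% to 12.8%). Of 123 genes numbered 1000 or more, 16 had one, or 13.0% (8.17% to 20.1%). Candidates in both replicates were found at 45 of 59, 20 of 76 and 48 of 123 of them in that order, and at 113 of all 258. Over all 258 microRNA genes, 48 had a thresholded summit (18.6%), against 11.9% of coding genes. The 28 genes include mir-35 to mir-40 with 1 summit and mir-42 to mir-44 with 1. They also include mir-54 to mir-56 with 3 summits and mir-64 to mir-66 with 2.

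The chromosomes differed in their counts, and part of the counts are clusters that share a summit. On chromosome II, 16 of 50 microRNA genes had a thresholded summit at 8 loci, against 10.9% of coding genes there, and 9 of the 16 belong to the mir-35 and mir-42 clusters. On III it was 9 of 27 at 6 loci, 4 of them in the mir-229 cluster, against 15.7% of coding genes. On X it was 9 of 72 at 5 loci, against 15.0% of coding genes. On I it was 7 of 33, each its own locus, against 15.9% of coding genes, and on IV 6 of 49, each its own locus, against 10.9%. On V it was 1 of 27, against 7.19% of coding genes. That gene was mir-87, in an intron of kup-1, with a candidate of 52.5 in replicate 1 and none within 100 bp in replicate 2. Beyond that distance, replicate 2 had a candidate of 56.2, which was 126 bp from the gene. These shares were not tested.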
